A study of Mus musculus with 12 samples.

Results

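The methionine cycle and transsulfuration genes were followed in livers that received an adenovirus carrying ChREBP, a transcription factor that responds to glucose and is encoded by Mlxipl, against livers that received an adenovirus carrying GFP. Of 10 listed genes (Mat1a, Mat2a, Mat2b, Gnmt, Bhmt, Bhmt2, Ahcy, Cbs, Cth and Nnmt), 8 had an array row annotated with that gene symbol alone and were analysed, out of 19938 genes in all. Mat2a had no such row and the 3 rows of Ahcy carried several symbols, so both are not analysed here. Where a gene had several rows, the brightest over the 12 arrays stood for it.

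The animals were fed male C57BL/6J mice, with a labelled age of 8 weeks, studied 3 weeks after virus injection into the tail vein. The ChREBP group and the GFP group held 6 mice each, labelled as biological replicates, and total RNA of the whole liver was hybridised to 1 array per mouse. All animals of both groups carried an adenovirus, and no uninjected animals were used here. Which promoter drives the insert, and which species and isoform of ChREBP it holds, is not given in the sources used here. Values are log2 RMA values, in which a difference of 1 is a doubling, and every difference is ChREBP minus GFP.

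In the methionine cycle, methionine is joined with ATP to make S-adenosylmethionine (SAM), the methyl donor of the cell. After the methyl group is handed on, S-adenosylhomocysteine is split to homocysteine. Homocysteine is either methylated back to methionine, by a folate-dependent or a betaine-dependent enzyme, or sent through transsulfuration to cysteine. The liver is the main site of this metabolism, and the betaine-dependent route and glycine N-methyltransferase are abundant there.

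Mlxipl was measured first as a check of the labels. It had a lowest, median and highest value of 10.74, 10.93 and 10.96 in ChREBP livers, against 9.07, 9.27 and 9.61 in GFP livers, so that every ChREBP array lay above every GFP array. The difference was 1.57 (SE 0.09), a 2.98-fold rise, with an adjusted p of 2.86e-08 in limma and an exact two-sided permutation p of 0.00216, the smallest that 6 against 6 arrays allow.

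Most members moved, and the falls were larger than the rises. Of the 8 analysed members, 5 fell (Gnmt, Nnmt, Bhmt2, Cbs and Cth), 2 rose (Mat1a and Mat2b) and Bhmt did not pass at an adjusted p under 0.05. Of all 19938 genes, 27.0% passed, with 13.3% higher and 13.7% lower in ChREBP livers. The groups did not overlap for 6 of the 8 members, against 15.2% of all genes. The median difference of the members was -0.35, against -0.042 over all genes. The median size of difference over all 8 members was 0.35, beside 0.11 over all genes and 0.32 among all genes that passed. The plot of the members by array shows these shifts on axes of equal span.

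**Figure D1:**
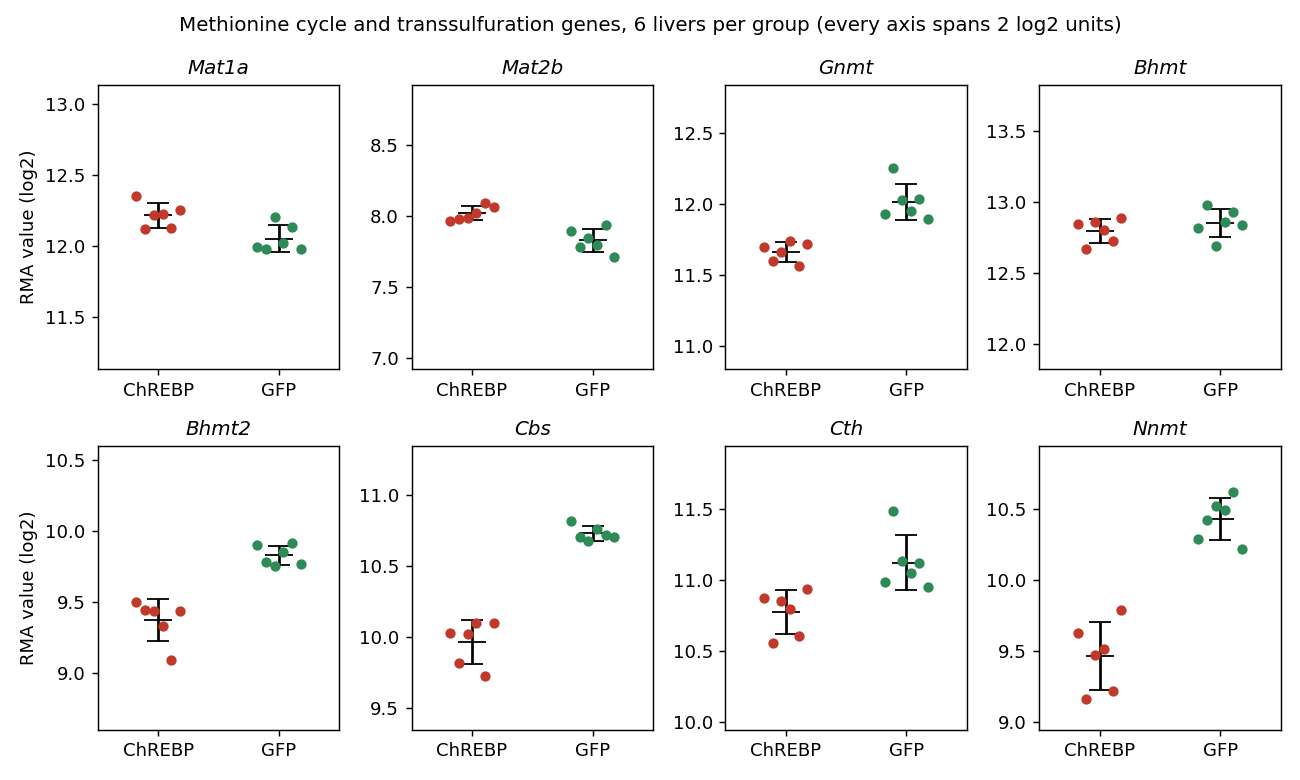
Log2 RMA value of the 8 analysed members in each of 6 ChREBP livers (red, left) and 6 GFP livers (green, right), with the group mean and SD in black; every vertical axis spans 2 log2 units. Cbs and Nnmt show the widest separation between groups, with ChREBP arrays up to 10.1 against GFP arrays from 10.67 for Cbs, and Bhmt arrays of the groups lie at the same height.

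Several cell type marker lists also moved between the groups. All 7 measured T and NK cell markers rose, with array means of 6.94 to 7.5 in ChREBP livers against 6.05 to 6.55 in GFP livers, and all 7 measured proliferation markers rose, with array means of 8.33 to 8.68 against 6.91 to 7.22. Of 8 measured hepatocyte markers 6 fell, none rose, and the median difference was -0.17, with array means of 12.45 to 12.54 in ChREBP livers against 12.64 to 12.73 in GFP livers. Of 9 Kupffer cell and macrophage markers 5 rose and 4 fell. Pancreatic acinar markers averaged 12.12 on ChREBP 4, 11.91 on ChREBP 5 and 7.36 on ChREBP 2, with 5.65 to 6.44 on the other ChREBP arrays, against 5.73 to 5.9 on GFP arrays. In whole liver, fewer cells of a type and less RNA per cell cannot be told apart. Values without the arrays of most pancreatic acinar signal are given below for the analysed members. Those without the arrays of most adipocyte signal are given for Mat2b and Nnmt. The part of the other markers was not tested.

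The genes for SAM synthesis were slightly higher in ChREBP livers, by margins that did not pass in every setting. Mat1a, the catalytic subunit of the methionine adenosyltransferase that is characteristic of adult hepatocytes, had a lowest, median and highest value of 12.12, 12.22 and 12.36 in ChREBP livers, against 11.98, 12.01 and 12.2 in GFP livers. These ranges overlapped. The difference was 0.17 (SE 0.06, 95% interval 0.05 to 0.28), a 1.12-fold rise, with an adjusted p of 0.0405. This call was lost under 13 of 25 alternative settings, 8 of which left out a single array, with adjusted p up to 0.215.

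Mat2b, the regulatory subunit that binds the other catalytic subunit (Mat2a, not analysed here), had a lowest, median and highest value of 7.97, 8.0 and 8.09 in ChREBP livers, against 7.71, 7.82 and 7.94 in GFP livers. The groups were set apart by a narrow margin. The difference was 0.19 (SE 0.05, 95% interval 0.09 to 0.29) with an adjusted p of 0.00767. Without GFP 4, GFP 6 and ChREBP 6, the arrays of most adipocyte signal, Mat2b differed by 0.14 (adjusted p = 0.0891), and neither gene of SAM synthesis passed.

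Both SAM-consuming methyltransferases among the members fell. Gnmt, which methylates glycine to sarcosine and is abundant in liver cytosol, had a lowest, median and highest value of 11.56, 11.68 and 11.74 in ChREBP livers, against 11.89, 11.99 and 12.25 in GFP livers, without overlap. Gnmt averaged 11.66 ± 0.07 in ChREBP livers and 12.01 ± 0.13 in GFP livers (SD, n = 6 each), a difference of -0.35 (SE 0.06) and 0.784 of the GFP level, with an adjusted p of 0.000599.

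Nnmt, which methylates nicotinamide, fell the furthest of the 8 members. Its lowest, median and highest values were 9.17, 9.5 and 9.79 in ChREBP livers, against 10.22, 10.46 and 10.62 in GFP livers. All ChREBP arrays lay below all GFP arrays. The difference was -0.96 (SE 0.1, 95% interval -1.19 to -0.74), 0.513 of the GFP level, with an adjusted p of 9.96e-06, and it took rank 100 by size of fall among all genes. Nnmt is known to be expressed in fat as well as in liver. The mean of adipocyte markers was 6.46 to 7.22 on ChREBP arrays against 6.15 to 7.02 on GFP arrays. Of the 7 measured markers 3 rose, 1 fell and the median difference was -0.04. Fabp4 differed the most, by 1.37, while Adipoq differed by -0.04. ChREBP 6 was the highest of its group for Nnmt and for the mean of these markers. GFP 4 had the highest adipocyte mean of the GFP arrays, 7.02, with an Nnmt value of 10.5. GFP 6 had the lowest GFP value of Nnmt (10.22) with an adipocyte mean of 6.93. GFP 5 had the highest GFP value (10.62) with an adipocyte mean of 6.24. The relation of Nnmt to these markers was not tested. Without the 3 arrays of most adipocyte signal (ChREBP 6, GFP 4 and GFP 6) the difference in Nnmt was -1.06, with an adjusted p of 3.76e-05.

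**Figure D2:**
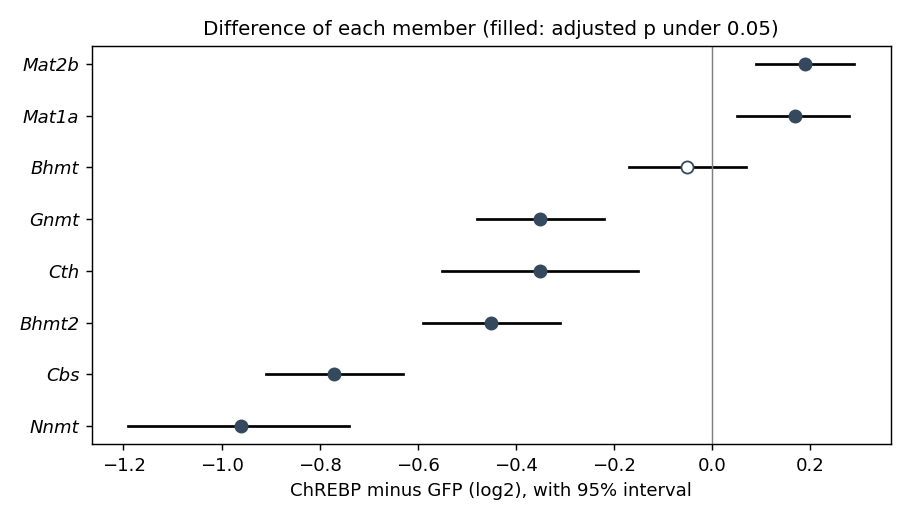
ChREBP minus GFP difference of each analysed member on the log2 scale, ordered from the highest to the lowest, with 95% intervals; filled points passed at an adjusted p under 0.05. The interval of Bhmt, -0.17 to 0.07, crosses 0, and the intervals of Cbs and Nnmt end at -0.63 and -0.74 on the side of 0.

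In homocysteine remethylation, the betaine enzyme and its neighbour differed. Bhmt, which moves a methyl group from betaine to homocysteine, had a lowest, median and highest value of 12.67, 12.83 and 12.89 in ChREBP livers, against 12.69, 12.85 and 12.98 in GFP livers, and the groups overlapped almost entirely. The difference was -0.05 (SE 0.06, 95% interval -0.17 to 0.07) with an adjusted p of 0.508. A second row of Bhmt differed by -0.06, and another, dim row had a difference of 0.0 with an adjusted p of 0.981.

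Bhmt2, a related enzyme that uses S-methylmethionine as the methyl donor, had a lowest, median and highest value of 9.09, 9.44 and 9.5 in ChREBP livers, against 9.76, 9.81 and 9.91 in GFP livers, without overlap. It averaged 9.37 ± 0.15 in ChREBP livers and 9.83 ± 0.07 in GFP livers (SD, n = 6 each). The difference was -0.45 (SE 0.07, 95% interval -0.59 to -0.31), 0.73 of the GFP level, with an adjusted p of 0.000144. The lowest array was ChREBP 5.

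To ask whether Bhmt and Bhmt2 moved by different amounts, their difference was taken on each array, so that any shift common to both genes cancels. Bhmt minus Bhmt2 was 3.22, 3.44 and 3.64 (lowest, median and highest) in ChREBP livers, against 2.92, 3.02 and 3.2 in GFP livers. The groups did not overlap and the shift was 0.40, with an exact two-sided permutation p of 0.00216, the smallest that the design allows, and 0.00433 after Benjamini-Hochberg adjustment over the 2 pairs tested. The size of each difference also depends on the probe sets, and only its shift between groups was read.

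In the mouse genome Bhmt, Bhmt2 and Dmgdh, the dimethylglycine dehydrogenase that acts on the product of Bhmt, are neighbours on chromosome 13. Bhmt2 and Dmgdh start head to head, with 133 bases between their starts. Dmgdh fell together with Bhmt2, by 0.30 on the log2 scale (11.42 ± 0.10 in ChREBP livers and 11.72 ± 0.06 in GFP livers, SD, n = 6 each, adjusted p = 0.000825). The shared gap is shown with the stretch before the start of Bhmt, because these neighbours differed in response. Both are from RefSeq, build GRCm38.p6, minus strand, 5′ to 3′, at chr13:93674303-93674435 and chr13:93637759-93638008, with matches to the nuclear receptor motif AGGTCA in capitals.
Bhmt2 and Dmgdh gap: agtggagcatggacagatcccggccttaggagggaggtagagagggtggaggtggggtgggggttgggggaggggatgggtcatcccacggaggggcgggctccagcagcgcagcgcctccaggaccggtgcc
Bhmt: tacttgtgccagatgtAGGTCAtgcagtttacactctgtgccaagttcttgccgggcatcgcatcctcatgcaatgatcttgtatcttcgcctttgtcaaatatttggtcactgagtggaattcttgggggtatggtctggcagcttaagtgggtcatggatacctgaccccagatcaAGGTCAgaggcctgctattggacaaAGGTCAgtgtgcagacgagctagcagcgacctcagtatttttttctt

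The Bhmt stretch held 3 matches to AGGTCA, searched on both strands, and the gap between Bhmt2 and Dmgdh held none. Over 32851 mouse promoter windows of 250 bases before to 50 after a start, 16.3% held at least 1 match. The gap of 133 bases and the Bhmt stretch of 250 bases are shorter than these windows, so the share is not a like comparison. The gap had a GC content of 69.9%, against 48.0% in the Bhmt stretch. These matches are a description of the letters and were not tested for binding.

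Gnmt and Cbs, a pair of members that both fell, lie far apart on chromosome 17 and are not neighbours. Their upstream stretches are shown for comparison with the genes just described. They come from the same source and build, both on the minus strand, at chr17:46729212-46729415 (Gnmt) and chr17:31637234-31637455 (Cbs). Capitals mark AGGTCA on either strand in Gnmt (its reverse complement is TGACCT) and the E-box CACGTG in Cbs.
Gnmt: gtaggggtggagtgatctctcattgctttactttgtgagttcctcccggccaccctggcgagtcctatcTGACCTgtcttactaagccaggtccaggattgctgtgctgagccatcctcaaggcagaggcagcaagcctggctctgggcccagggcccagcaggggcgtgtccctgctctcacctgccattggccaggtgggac
Cbs: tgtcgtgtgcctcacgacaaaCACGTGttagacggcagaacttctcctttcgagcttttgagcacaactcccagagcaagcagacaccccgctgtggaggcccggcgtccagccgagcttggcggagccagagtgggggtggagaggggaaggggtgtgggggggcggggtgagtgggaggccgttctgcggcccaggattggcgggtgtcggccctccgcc

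Of the 8 analysed members 5 had a promoter entry (Mat2b, Gnmt, Bhmt, Bhmt2 and Cbs). CACGTG, which reads the same on both strands, was found in Cbs and in no other of these 5 windows, and in 7.15% of all promoter windows. E-boxes of these letters form part of the element that ChREBP is known to bind as a pair of boxes. Binding at Cbs was not measured in these data. The core of the antioxidant response element, TGACNNNGC on either strand, was in none of the 5 windows and in 12.4% of all promoter windows.

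Both transsulfuration enzymes fell. Cbs, cystathionine beta-synthase, which condenses homocysteine with serine, had a lowest, median and highest value of 9.73, 10.02 and 10.1 in ChREBP livers, against 10.67, 10.71 and 10.82 in GFP livers. The groups were far from overlapping. Cbs averaged 9.96 ± 0.16 in ChREBP livers and 10.73 ± 0.05 in GFP livers (SD, n = 6 each), a difference of -0.77 (SE 0.07, 95% interval -0.91 to -0.63) and 0.588 of the GFP level. Its adjusted p of 1.25e-06 was the smallest of the 8 members, and it took rank 175 by size of fall among all genes.

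Cth, cystathionine gamma-lyase, which splits cystathionine to cysteine, had a lowest, median and highest value of 10.56, 10.83 and 10.94 in ChREBP livers, against 10.95, 11.08 and 11.49 in GFP livers. The groups nearly touched but did not overlap, and GFP 2 lay far above the other GFP arrays. The difference was -0.35 (SE 0.09, 95% interval -0.55 to -0.15), 0.785 of the GFP level, with an adjusted p of 0.0123. Without ChREBP 2 and ChREBP 5, a pair left out after their values were seen, the difference was -0.25 and its adjusted p was 0.0741.

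Cbs fell by more than Cth. Cbs minus Cth on each array was -0.88, -0.84 and -0.7 (lowest, median and highest) in ChREBP livers, against -0.78, -0.34 and -0.17 in GFP livers, and the groups overlapped only through GFP 2. The shift was -0.42 (exact two-sided permutation p = 0.00649, and 0.00649 after adjustment over the 2 pairs). Without GFP 2 the shift was -0.5. The spread was 0.07 in ChREBP livers and 0.22 in GFP livers (SD, n = 6 each).

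**Figure D3:**
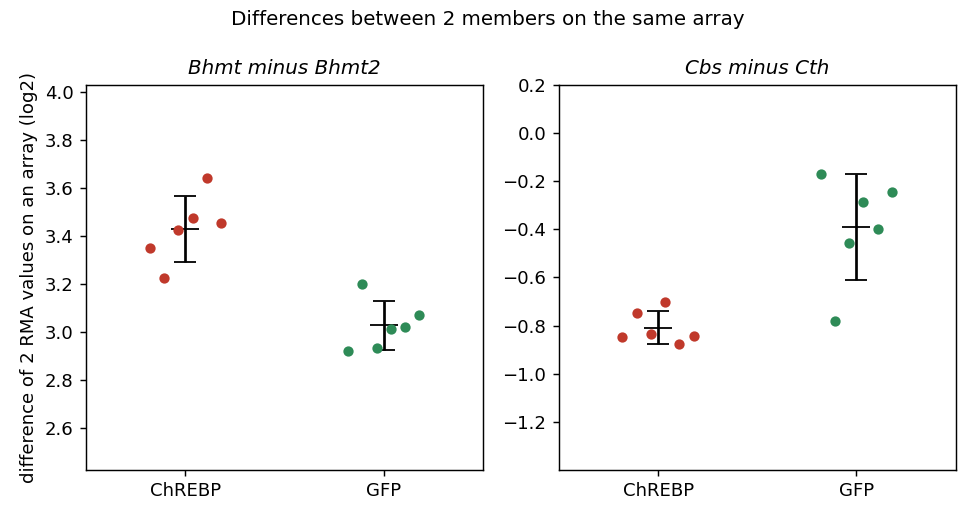
Difference between the log2 values of a pair of members on the same array, for Bhmt minus Bhmt2 and Cbs minus Cth, in 6 ChREBP livers (red, left) and 6 GFP livers (green, right), with mean and SD in black. Bhmt minus Bhmt2 is at least 3.22 in ChREBP livers and at most 3.2 in GFP livers; Cbs minus Cth is at most -0.7 in ChREBP livers, and GFP livers reach down to -0.78.

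Within the ChREBP group, members were low on the same arrays. ChREBP 2 and ChREBP 5 were each among the lowest 2 arrays for 7 of the 8 members, and both were for Mat1a, Gnmt, Bhmt, Cbs, Cth and Nnmt. ChREBP 6 was the highest array for 4 members. The same 2 arrays had the lowest hepatocyte marker mean, 12.45 each, against 12.53 to 12.54 on the other ChREBP arrays. ChREBP 5 also had the lowest Mlxipl value in its group and the highest T and NK cell marker mean, 7.5. Its means of B and plasma cell (5.64), neutrophil (6.25), endothelial (8.68) and cholangiocyte (6.69) markers were the highest of all arrays too. The relation of these values to the members was not tested.

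Without ChREBP 2 and ChREBP 5, Cbs differed by -0.67 (adjusted p = 1.3e-06), Nnmt by -0.83 (3.23e-05), Bhmt2 by -0.4 (0.000214) and Gnmt by -0.31 (0.00612), so these 4 falls passed with and without them. Among GFP livers, GFP 6 lay below the group mean for all 8 members and was among the lowest 2 for 7, and GFP 2 was the highest for 3. Without ChREBP 4 and ChREBP 5, the arrays with most pancreatic acinar signal, Cbs differed by -0.74 and Nnmt by -0.91, with adjusted p of 2.99e-06 and 9.02e-05. Gnmt then differed by -0.35 (0.00291), Bhmt2 by -0.37 (0.000164) and Cth by -0.31 (0.0467). Mat2b differed by 0.17 (0.0352), while Mat1a at 0.19 (0.0503) and Bhmt at -0.04 (0.701) did not pass.

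**Figure D4:**
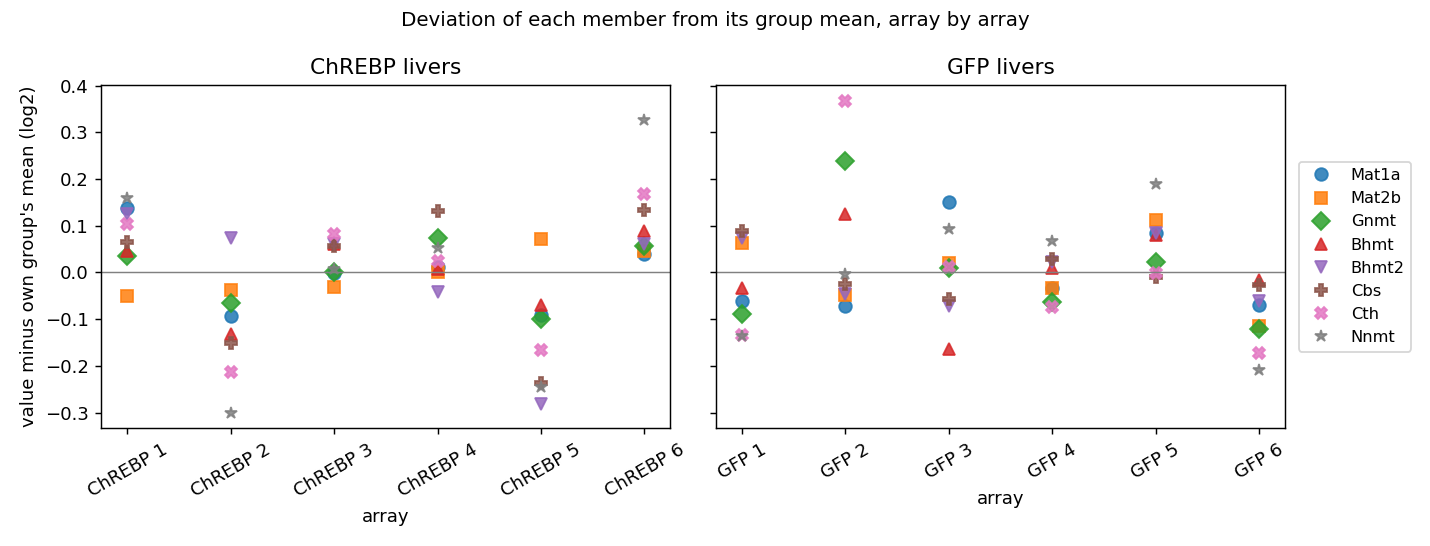
Deviation of each analysed member from the mean of its own group on the log2 scale, for ChREBP arrays 1 to 6 (left) and GFP arrays 1 to 6 (right); each symbol is a gene. On ChREBP 2 and ChREBP 5 each, 7 of 8 members are among the lowest 2 values of the group, and on GFP 6 all 8 members lie below 0.

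The genes around the cycle were read from 9 lists, of which 75 of 85 genes were measured. Together 13 rose, 24 fell and 38 did not pass, against 13.3% higher and 13.7% lower among all genes, and the median difference was -0.08, against -0.042 over all genes. The share that rose was thus near that of all genes. The lists with the most calls in 1 direction and none in the other were choline, betaine and sarcosine oxidation and the use of cysteine, sulfide and taurine.

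Choline, betaine and sarcosine oxidation supplies betaine and removes the products of Bhmt and Gnmt. Of its 7 genes 6 fell and none rose, against 13.7% lower among all genes, and the median difference was -0.31. Sardh, the sarcosine dehydrogenase, was at 10.08 ± 0.12 in ChREBP livers and 10.57 ± 0.07 in GFP livers (SD, n = 6 each), a difference of -0.48 (adjusted p = 3.13e-05). Pipox, a peroxisomal sarcosine oxidase, fell by 0.45, Slc6a12, a betaine carrier, by 0.48, Aldh7a1, which oxidises betaine aldehyde, by 0.31 and Slc44a1, a choline carrier, by 0.29. Chdh, the choline dehydrogenase, differed by 0.10 and did not pass.

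Downstream of transsulfuration, 7 of 12 genes for cysteine, sulfide and taurine fell and none rose, against 13.7% lower among all genes, with a median difference of -0.18. Tst, the thiosulfate sulfurtransferase, was at 9.81 ± 0.07 in ChREBP livers and 10.5 ± 0.11 in GFP livers (SD, n = 6 each), a difference of -0.69 (adjusted p = 6.6e-07). Baat, which conjugates bile acids with taurine or glycine, fell by 0.51, Suox, the sulfite oxidase, by 0.45 and Ethe1, a persulfide dioxygenase, by 0.30. Cdo1, the cysteine dioxygenase that opens the way to taurine, fell by 0.18. In glutathione synthesis and cystine import, 3 of 6 measured genes rose and none fell, against 13.3% higher among all genes. Slc7a11, the cystine importer, rose by 3.13 on the log2 scale. It was at 7.66 ± 0.32 in ChREBP livers and 4.53 ± 0.19 in GFP livers (SD, n = 6 each). Gss, the glutathione synthetase, rose by 0.31 (adjusted p = 0.00733) and Slc3a2 by 0.19 (adjusted p = 0.0249). The glutamate-cysteine ligase subunits Gclc and Gclm differed by -0.01 and 0.03 and did not pass.

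**Figure D5:**
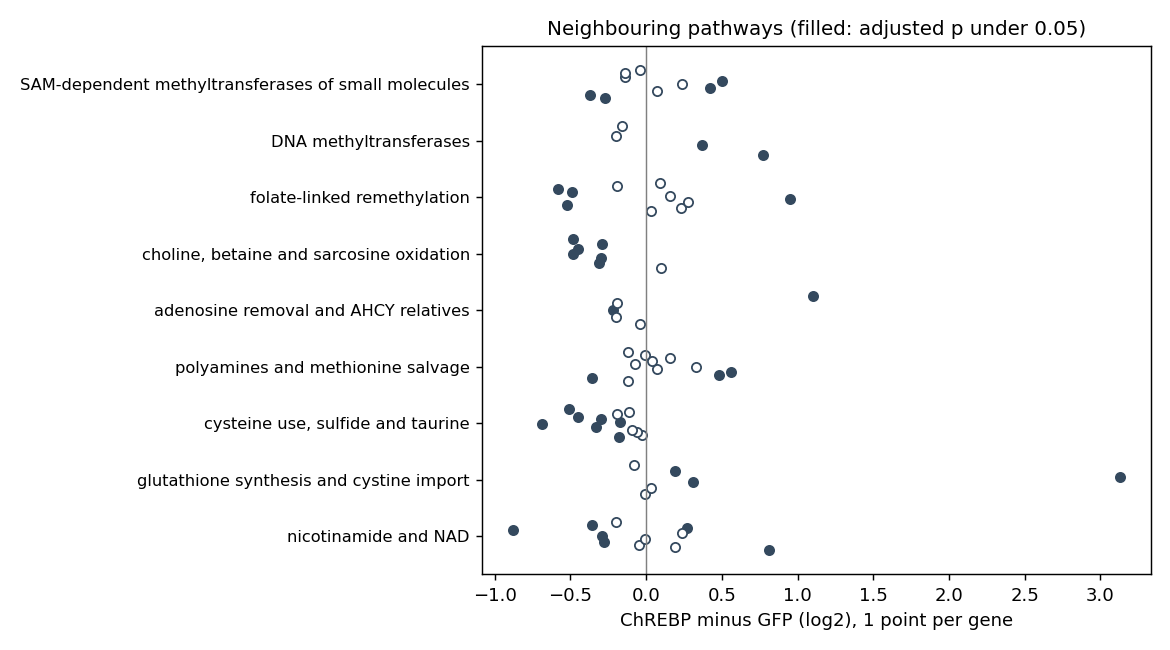
ChREBP minus GFP difference on the log2 scale of each measured gene in 9 lists around the methionine cycle, 1 point per gene; filled points passed at an adjusted p under 0.05. In choline, betaine and sarcosine oxidation 6 of 7 genes fell, and in cysteine use, sulfide and taurine 7 of 12 fell and none rose, while Slc7a11 stands alone at 3.13.

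Other users of SAM did not share 1 direction. Of 9 measured methyltransferases of small molecules 2 rose, 2 fell and 5 did not pass, against 27.0% of all genes passing, with a median difference of -0.04. Pemt, which makes phosphatidylcholine from phosphatidylethanolamine, fell by 0.37 (10.94 ± 0.10 in ChREBP livers and 11.31 ± 0.13 in GFP livers), and Gamt, the last enzyme of creatine synthesis, by 0.27. As3mt, which methylates arsenic, rose by 0.50 and Hnmt, which inactivates histamine, by 0.42. Of the 4 DNA methyltransferase genes, Dnmt1, which copies methylation at replication, rose by 0.77 and Dnmt3a by 0.37, and Dnmt3b and the cofactor Dnmt3l differed by -0.20 and -0.16 without passing. The proliferation markers given above rose in the same livers, and their part in the rise of Dnmt1 was not tested.

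In folate-linked remethylation 1 of 10 measured genes rose and 3 fell, against 13.3% higher and 13.7% lower among all genes. Mthfd1l, a mitochondrial formate-producing enzyme, rose by 0.95 (adjusted p = 3.27e-06), Shmt2 and Shmt1, the mitochondrial and cytosolic serine hydroxymethyltransferases, fell by 0.58 and 0.49, and Mthfd1 fell by 0.52. Mtr, the methionine synthase itself, differed by 0.03 and did not pass.

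In a list of adenosine genes and Ahcy relatives 1 of 5 genes rose and 1 fell, against 13.3% higher and 13.7% lower among all genes. Nt5e, the ectoenzyme that forms adenosine, rose by 1.10 and Adk, the adenosine kinase, fell by 0.22, while the Ahcy relatives Ahcyl1 and Ahcyl2 differed by -0.04 and -0.20 and did not pass. Among 11 measured genes for polyamines and methionine salvage, Smox, the spermine oxidase, and Sat1, which acetylates polyamines, rose by 0.56 and 0.48, Srm, the spermidine synthase, fell by 0.36, and 8 did not pass. The 3 of 11 that passed are at the share of all genes, 27.0%.

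Nicotinamide, the substrate of Nnmt, is also recycled to NAD, and 2 of 11 genes for nicotinamide and NAD rose and 4 fell, against 13.3% higher and 13.7% lower among all genes. Nampt, which takes nicotinamide back to NAD, was at 10.03 ± 0.10 in ChREBP livers and 9.22 ± 0.23 in GFP livers (SD, n = 6 each), a rise of 0.81 with an adjusted p of 1.91e-05. Aox3, an aldehyde oxidase that acts on methylated nicotinamide, the product of Nnmt, was at 11.2 ± 0.22 in ChREBP livers and 12.08 ± 0.04 in GFP livers, a fall of 0.88 on the log2 scale (adjusted p = 4.14e-06). Nadk2, Qprt and Naprt fell by 0.36, 0.29 and 0.28, while Nadk rose by 0.27 (adjusted p = 0.00228).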

How the data were processed

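RNA from the whole liver of 12 mice (6 ChREBP, 6 GFP) was amplified by the authors with a Nugen kit and read on Affymetrix mouse gene arrays. The values are log2 expression values deposited by the authors, made with RMA and Partek according to the submitters' processing notes, which give no versions. RMA includes a quantile step that sets the probe values of all arrays to 1 distribution, so a shift common to all genes would not be seen. Medians of the deposited rows still ran from 5.956 on GFP 1 to 6.049 on GFP 6. No scan date was found in the sources, so no array batch was tested. The number of arrays limits the precision, and detection calls were not used, so no gene was called absent and no level was set against that of another probe set.

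Of 35556 rows, 21789 carry 1 gene symbol, 1621 several and 12146 none in the platform annotation. Symbols were updated through the Entrez ID for 21698 rows (RefSeq table of GRCm38.p6), giving 19938 genes. The two-sided test without covariates was that of limma 3.58.1 (lmFit, then eBayes; R 4.3.3), and p-values were adjusted over all genes after Benjamini and Hochberg. The array methods of the study describe another virus and an analysis of variance, which was run as an alternative. Single values were tested by exact permutation over all 924 assignments of the arrays. The pair of Mat2a and Mat1a could not be tested, which left 2 pairs.

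The members and lists were chosen with earlier results of these data known, and the motifs were chosen with the member sequences at hand. Genes named are Mlxipl, the members, up to 4 genes per list with the smallest p, and genes that complete a small count; Dmgdh, Slc44a1, Chdh, Cdo1, Gclc, Gclm and Mtr were added after their values were seen. The test was checked on simulated data. Promoter sequences are from RefSeq.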

Additional observations from a re-analysis of the deposited data

Results flagged for a closer look

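Among 90 groups of 6 arrays, 3 held an array far from the other 5, where chance gives about 1 in 20. Cth was at 11.49 on GFP 2, with the nearest GFP array at 11.13, and without GFP 2 the difference of Cth was -0.28 with an adjusted p of 0.0149. Hnmt was at 8.39 on ChREBP 4, with the nearest ChREBP array at 8.64. Adk was at 10.96 on GFP 6, with the nearest GFP array at 11.06.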

How the results depend on the processing

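The falls of Gnmt, Bhmt2, Cbs and Nnmt passed under all 25 alternatives, with differences of -0.41 to -0.3, -0.48 to -0.37, -0.79 to -0.67 and -1.06 to -0.83. The rise of Mat1a (0.17) was the least stable. It ranged from 0.13 to 0.21, and its adjusted p exceeded 0.05 without ChREBP 1 (0.0886), ChREBP 3 (0.0676), ChREBP 4 (0.0587), ChREBP 6 (0.0759), GFP 1 (0.0775), GFP 2 (0.0761), GFP 4 (0.0723) or GFP 6 (0.0791), and in 5 other settings, up to 0.215. Mat2b lost its call only without GFP 4, GFP 6 and ChREBP 6 (0.14, adjusted p = 0.0891). The number of members that rose, 2, was 1 with all rows tested, with median centring, with the replicate block and without ChREBP 4 and ChREBP 5, 0 without GFP 4, GFP 6 and ChREBP 6, and 1 to 2 when leaving out 1 array at a time. Values that had not passed reached 0 or changed sign: Ahcyl1 was 0.0 without ChREBP 4 and ChREBP 5, the dim row of Bhmt was 0.0, and its main row was -0.0 (adjusted p = 0.976) without ChREBP 2 and ChREBP 5. Slc3a2 lost its call and Apip gained one in 7 settings each, and Dnmt3l gained one in 2, Dnmt3b in 1 and Ahcyl2 in 1. Median centring set the median of all genes' differences at -0.06 and repeated quantile normalization at -0.037.

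Groups share replicate numbers in the labels, but same-numbered arrays did not deviate together (correlations of 0.097, -0.039, 0.061, -0.061, 0.034 and 0.254), and only array 6 correlated best with its own number. With the replicate block 4439 genes passed, against 5375 without it, and 5 of the 8 members, since Mat1a (adjusted p = 0.0938) and Cth (adjusted p = 0.0513) did not. Both pair differences kept their direction and side of the threshold in every setting in which they were run. The planned pair of Mat2a and Mat1a was not run.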
